A study of Mus musculus with 2 samples.

Results

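CTCF binding was examined in the 4 Hox gene clusters of mouse embryonic stem cells, as 4 fixed windows of the mm8 genome build: the Hoxa window on chromosome 6 from 52000000 to 52320000, the Hoxb window on chromosome 11 from 95950000 to 96350000, the Hoxc window on chromosome 15 from 102650000 to 102950000 and the Hoxd window on chromosome 2 from 74350000 to 74700000. Members were the reads in these windows and the enriched regions called from them. The windows covered 1370 kb and held 39 of the 34781 CTCF-enriched regions of the genome, with 2058 ChIP reads and 3038 extract reads. The cells were V6.5, a male line of genotype 129SvJaexC57BL/6, grown on feeder fibroblasts and then passaged on gelatin to deplete these. 1 library came from chromatin immunoprecipitated with an antibody against CTCF (the ChIP) and 1 from whole-cell extract, the control. There were no replicates, so each comparison is between these libraries and its intervals cover counting error only.

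Hox genes encode homeodomain transcription factors that give cells of the embryo their position along the head-to-tail axis. Genes lie in each cluster broadly in the order of the body levels at which they act, low paralog numbers towards the head and high numbers towards the tail, and in embryonic stem cells most are held silent under Polycomb marks. CTCF is a zinc-finger protein that binds a long, directional motif, blocks enhancers and anchors chromatin loops, and in Hox clusters its sites are known to lie between genes and to separate active from silent chromatin.

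The 38 genes are grouped by cluster, in their order along the chromosome in the RefSeq annotation of GRCm38.p6, from which names and neighbours alone were taken. The Hoxa genes run from Hoxa2, Hoxa3, Hoxa4, Hoxa5 and Hoxa6 to Hoxa7, Hoxa9, Hoxa10, Hoxa11 and Hoxa13, followed by Evx1, another homeobox gene. Hoxb starts at the other end, with Hoxb13, Hoxb9, Hoxb8, Hoxb7, Hoxb6, Hoxb5, Hoxb3, Hoxb4, Hoxb2 and Hoxb1, and Skap1 beyond. Hoxc runs through Hoxc13, Hoxc12, Hoxc11, Hoxc10, Hoxc9, Hoxc8, Hoxc6, Hoxc5 and Hoxc4. Hoxd follows Evx2 with Hoxd13, Hoxd12, Hoxd11, Hoxd10, Hoxd9, Hoxd8, Hoxd3, Hoxd4 and Hoxd1, before Mtx2. Genes are listed by annotated start, which puts Hoxb3 before Hoxb4 and Hoxd3 before Hoxd4 although the numbers otherwise fall along these clusters. The windows were taken as Hox clusters by their given coordinates and were not checked against an annotation of mm8. The RefSeq build differs from that of the reads, so no gene was placed at an enriched region, and whether a region lies in an exon, an intron or between genes was not analysed here.

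Promoter sequences of the members are shown because they are the regulatory DNA of these clusters in which letters of the CTCF core could be looked up. RefSeq promoters (250 bases before to 50 after the start, GRCm38.p6) were matched by symbol for 22 of the 38 genes, which gave 24 promoters. The core was spelled CCNNNAGNNGGC, searched on both strands, with no other motif, and the spelling was chosen after several had been counted. It occurred in 4 of the 24 promoters (16.7%), against 2828 of 32851 promoters of all genes (8.61%), a difference that was not tested. Each line below is on the strand of the gene, with the core in capitals. In Hoxd11, Hoxd3 and Hoxc4 it reads on the opposite strand.

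Hoxa11: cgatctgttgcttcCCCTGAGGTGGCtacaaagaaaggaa

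Hoxd11: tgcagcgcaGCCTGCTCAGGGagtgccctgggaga

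Hoxd3: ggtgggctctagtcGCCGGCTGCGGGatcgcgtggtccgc

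Hoxc4: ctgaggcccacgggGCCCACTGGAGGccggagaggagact

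The core starts 185 bases before the start site in Hoxa11, a gene of limb and urogenital development, 241 before in Hoxd11, which acts in forearm and kidney, and 73 before in Hoxc4. In Hoxd3 it starts 6 bases after the start site. These are letter matches in 300 bases, and no ChIP read was tied to them.

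Both libraries were counted from single aligned reads. The ChIP library had 2370818 reads on the assembled chromosomes (0.901 per kb) and the extract 4686960 (1.78 per kb), and extract counts were scaled by the ratio of these totals, 0.506. Each position and strand occurred at most once in each library (0 repeated reads), which puts a ceiling on counts in narrow sites. Each 5′ end was shifted downstream to near the middle of its fragment before counting. When extract was tested over ChIP with the same settings, 30 regions were called in the genome and 0 in the Hox windows.

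ChIP reads gathered at a few narrow sites in each window. Of the 810 1-kb bins with a ChIP read, 36 were called, which is 4.44%, against 2.60% of such bins over the genome. A bin was called when the adjusted p of an exact Poisson test, corrected over all 1107935 such bins, was under 0.001 and the count was at least 5 times the expected one. Expected counts came from whichever was highest, the genome average or the scaled extract in 1, 5 or 10 kb around. By window, 8 of 195 bins were called in Hoxa (4.1%), 16 of 258 in Hoxb (6.2%), 4 of 180 in Hoxc (2.22%) and 8 of 177 in Hoxd (4.52%). The Hoxc share lies near that of the genome, and the other shares are higher. These differences rest on 4 to 16 called bins per window and were not tested. Neighbouring called bins can belong to the same site, so bins are not independent. Called bins held 39.4% of the ChIP reads and 4.39% of the extract reads in the Hoxa window, 41.7% and 6.2% in Hoxb, 17.4% and 1.43% in Hoxc, and 34.4% and 2.1% in Hoxd.

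**Figure D1:**
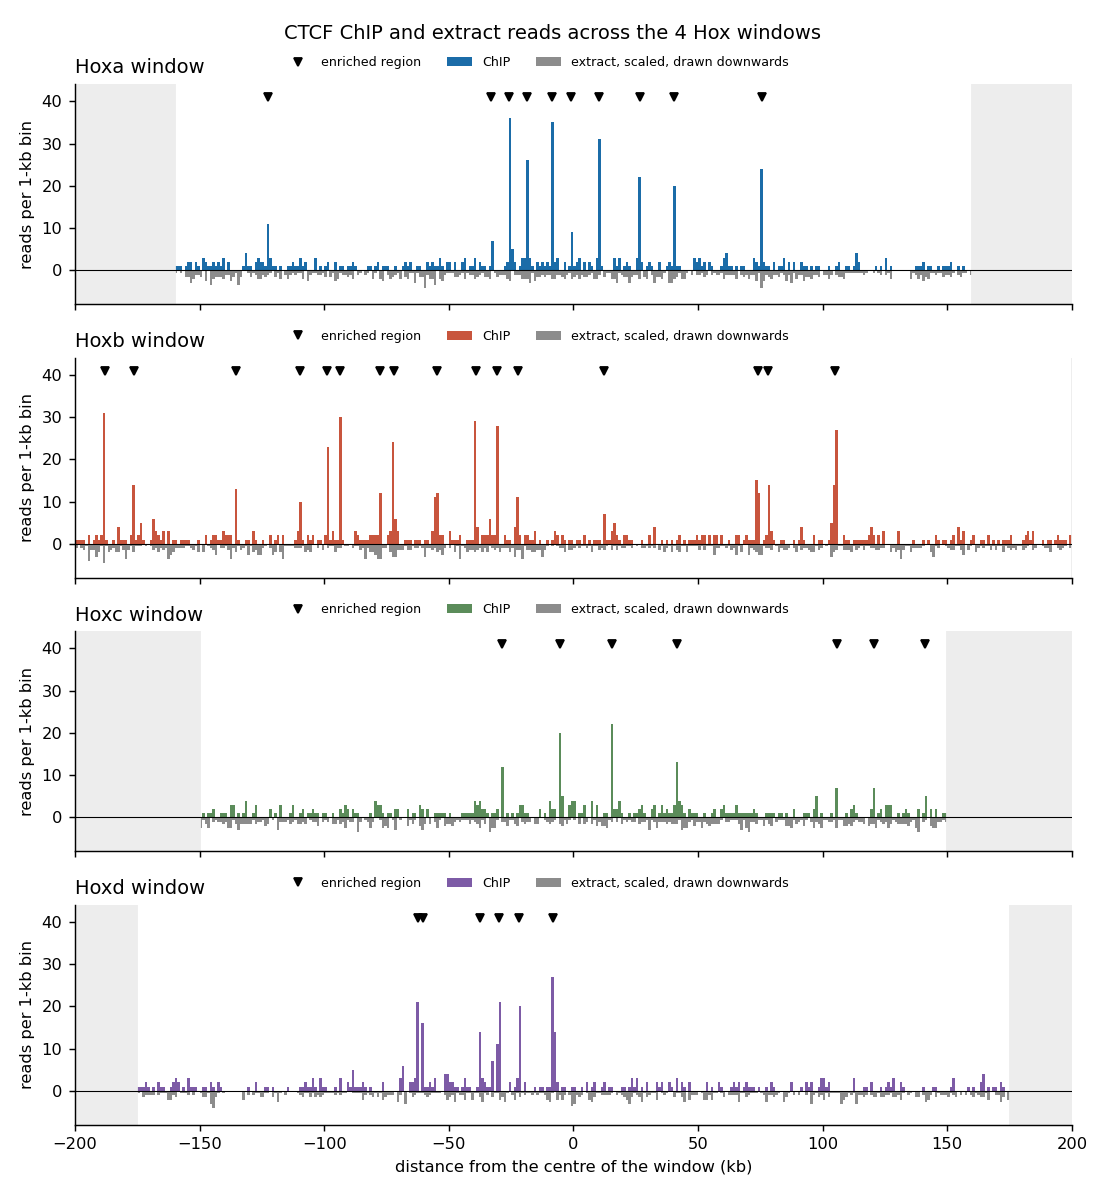
ChIP reads (coloured, upwards) and scaled extract reads (grey, downwards) in 1-kb bins against the distance from the window's centre in kb, with triangles at the summits of enriched regions and grey areas outside the window. The highest bins hold 36 ChIP reads in Hoxa, 31 in Hoxb, 22 in Hoxc and 27 in Hoxd, and the Hoxd regions gather in one stretch.

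In each window the bin with the most ChIP reads was called. In Hoxa it ran from 52134001 to 52135000 and held 36 ChIP and 5 extract reads, 14.2 times the expected count (exact Poisson test, adjusted p = 1.89e-26). In Hoxb it ran from 95961001 to 95962000 with 31 ChIP reads, 6.81 times the expected count (exact Poisson test, adjusted p = 3.54e-14). That bin also held the most extract reads of its window, 9. The Hoxc bin from 102815001 to 102816000 held 22 ChIP and 2 extract reads, 18.9 times the expected count (adjusted p = 1.09e-18, exact Poisson test). The Hoxd bin from 74516001 to 74517000 counted 27 ChIP reads over 1 of the extract, 19.1 times the expected count (adjusted p = 5.43e-23, exact Poisson test). Other bins rich in extract reads differed in ChIP reads. The bins with the most extract reads elsewhere were from 52100001 to 52101000 in Hoxa, with 8 extract and 0 ChIP reads, and from 74380001 to 74381000 in Hoxd, with 8 extract reads over 1 of the ChIP. A second Hoxa bin, from 52235001 to 52236000, also held 8 extract reads and was called with 24 ChIP reads. In Hoxc 4 bins shared the maximum of 7 extract reads, with 0 to 2 ChIP reads each.

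Single sites were resolved as enriched regions, that is, 200-bp windows tested every 50 bp in the same way and joined within 200 bp. Of the 5032 such windows with a ChIP read in the Hox windows, 216 passed (4.29%), against 2.95% over the genome. They formed 10 regions in Hoxa, 16 in Hoxb, 7 in Hoxc and 6 in Hoxd. A region is given here by its mm8 bounds, its ChIP and extract reads, and the ratio of ChIP to scaled extract with an exact 95% interval. These ratios use the reads that called the regions and are a description.

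In the Hoxa window the strongest region spanned 52133951 to 52134550, with 36 ChIP reads over 3 of the extract (23.7-fold, interval 7.50 to 120). The next, from 52151101 to 52151650, held 33 and 2 reads (32.6-fold, 8.34 to 281). The region from 52169901 to 52170400 held 29 and 2 reads. The region from 52141051 to 52141550 had 25 ChIP reads over 3 of the extract, and the last one of the window (52235401 to 52235850) had 21 over 4. These 5 regions have overlapping intervals and cannot be ranked by ratio. The weakest, from 52126901 to 52127250 and from 52159101 to 52159350, had just 7 ChIP reads each over 0 of the extract, which gives at least 4.61-fold with the floor of 3 extract reads put in. The exact lower limit, which also covers the error of the ChIP count, is 2.85.

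Spacing in the Hoxa window was close. Apart from a lone region at 52037301 (11 ChIP reads) and the last one, 8 summits followed each other within 73.3 kb, from 52127051 to 52200351. The 7 steps between them were 7.1 to 16.6 kb. The closest summits, at 52134201 and 52141301, lay 7.1 kb apart, and the longest stretch without a summit was the 89.8 kb between 52037301 and 52127051.

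The Hoxb window, the longest at 400 kb, had the most regions, here and in all 14 other settings of the calling. Those settings reuse the same libraries, and rates per 100 kb are compared below. The strongest, from 96254801 to 96255300, counted 37 ChIP reads over 5 of the extract (14.6-fold, interval 5.74 to 47.7). It was followed by the region from 96110551 to 96111050 with 31 and 4 reads (15.3-fold, 5.42 to 59.7). 3 regions held 27 ChIP reads each. Their extract reads differed: 6 from 95961601 to 95962050 (8.90-fold, 3.60 to 26.4), 1 from 96056251 to 96056750 (53.4-fold, 8.80 to 2185) and 0 from 96119051 to 96119600 (at least 17.8-fold at the floor of 3, exact lower limit 13.5). The weakest region of the window, from 96162151 to 96162400, counted 6 ChIP reads over 1 of the extract (11.9-fold, 1.44 to 546).

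Regions were spread over 293 kb of the Hoxb window. The densest part held 9 summits within 87.8 kb, from 96040101 to 96127851. The closest summits, 96224001 and 96228251, were 4.25 kb apart, and the longest stretch between neighbouring summits, 61.8 kb, ended at the first of them. Of the 39 regions, the one at 96228251 had the most uneven strands, 1 plus and 12 minus reads. Its exact binomial p was 0.00342, and 0.98 after adjustment over all 34781 regions. All 39 regions held reads of both strands.

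The Hoxc window had the weakest regions, with a median of 9 ChIP reads. Its strongest lay from 102815401 to 102815850 with 22 ChIP and 0 extract reads (at least 14.5-fold at the floor of 3, exact lower limit 10.8). The next, from 102794451 to 102794850, counted 19 over 1 (37.6-fold, interval 5.97 to 1561). The region from 102841501 to 102841900 had 12 ChIP reads, and that from 102771301 to 102771650 had 9. These 4 regions lay within 70.2 kb, and their summits were 20.9 to 26.1 kb apart. The other 3 regions, towards the end of the window, held 5 or 6 ChIP reads: from 102905801 to 102906000 with 2 extract reads (5.93-fold, 1.06 to 60.1), from 102920701 to 102920900 with 1 and from 102941151 to 102941350 with 0. The first and the last of these 3 were each found in 7 of 14 other settings of the calling, and the middle one in 10. Several of the 14 only loosen the calling and could hardly lose a region. The longest stretch between neighbouring summits, 64.2 kb, separated the 4 stronger regions from these, and the closest summits, at 102905901 and 102920801, lay 14.9 kb apart.

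The Hoxd window held 6 regions, 1 less than Hoxc, and the region with the most reads. The order of these counts depends on the calling: Hoxc had fewer regions than Hoxd in 7 of 14 other settings and as many in 3. The Hoxd region with the most reads, from 74516551 to 74517300, was also the longest of the 39 at 750 bp, with 40 ChIP and 0 extract reads (at least 26.4-fold at the floor of 3, exact lower limit 20.5). By reads it ranked 2001 of the 34781 regions of the genome, and 93.6% had fewer. The region from 74494801 to 74495350 had 24 ChIP reads and that from 74503001 to 74503450 had 20, each over 2 of the extract. The first summits, 74462801 and 74464551, were the closest in any of the windows, 1.75 kb apart, with 21 and 15 ChIP reads over 0 and 1 extract read. The weakest region, from 74487101 to 74487450, counted 9 ChIP reads over 1 of the extract, and the longest step, 22.8 kb, came before it. All 6 summits lay within 54.0 kb. No region was called in the 113 kb before the first or the 183 kb after the last.

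**Figure D2:**
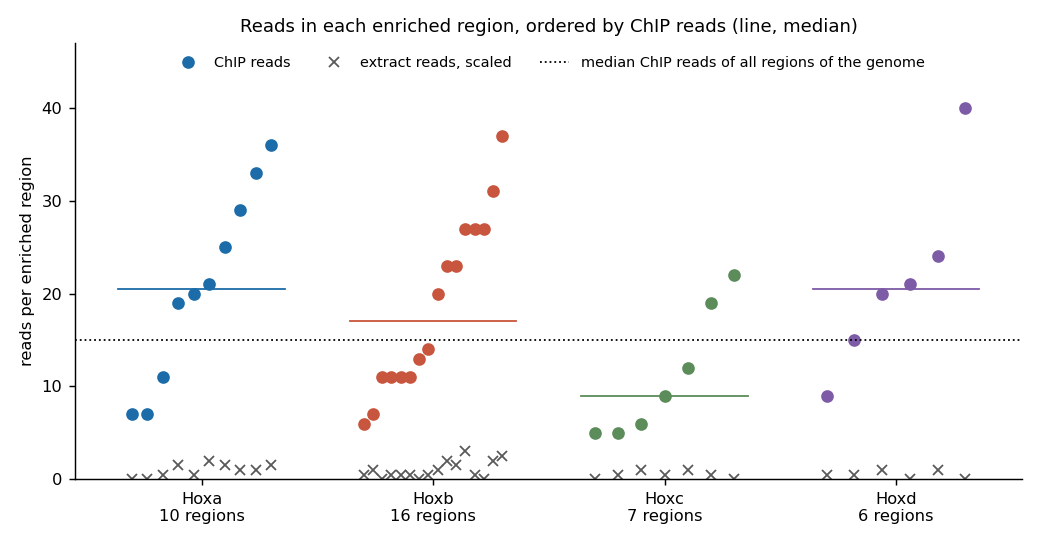
ChIP reads (points) and scaled extract reads (crosses) in each enriched region, ordered by ChIP reads within a window, with the median of each window as a line and that of the genome's regions (15 reads) dotted. Hoxa and Hoxd have medians of 20.5 reads, Hoxb of 17 and Hoxc of 9, and the ranges overlap.

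Read counts of the Hox regions fell within the range of the genome. Their median was 19 reads, against 15 over all 34781 regions, and 19 of the 39 (48.7%) held at least 20 reads, against 37.6% of all. No extract read fell in 9 of the 39 (23.1%, against 30.4% of all). Together the 39 regions held 714 ChIP and 64 extract reads, a 22.1-fold ratio (interval 17.1 to 29.0), against 26.0-fold (25.7 to 26.2) for the genome's regions. This is a description of called regions. Plus-strand ends lay before the summit and minus-strand ends after it. Over the Hox regions their medians were 198 bp apart (354 plus and 360 minus reads), against 189 bp over the genome. By window the distance was 184 bp in Hoxa, 204 bp in Hoxb, 191 bp in Hoxc and 207 bp in Hoxd.

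**Figure D3:**
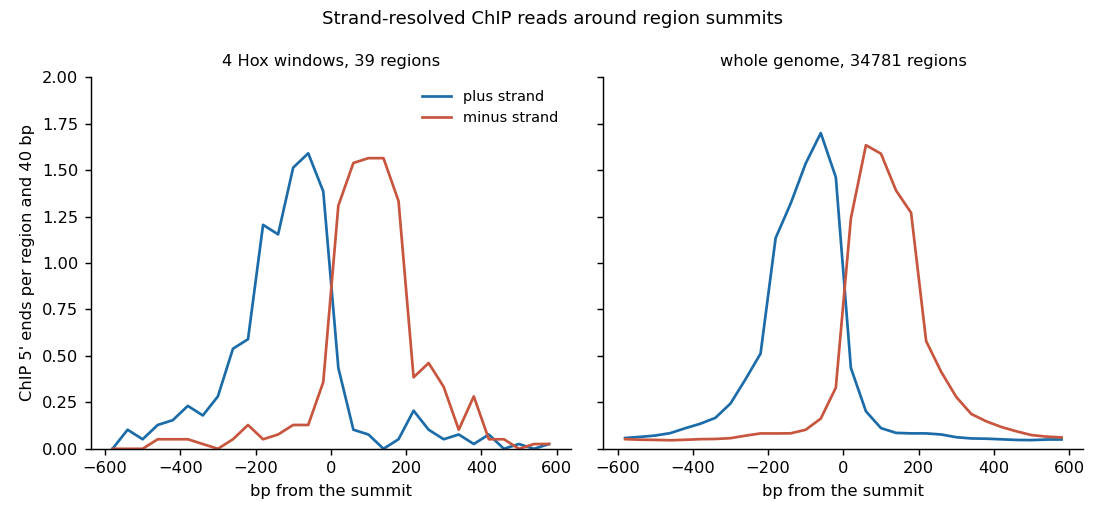
ChIP 5′ ends per region and 40 bp against the distance from the summit in bp, for plus-strand (blue) and minus-strand (red) reads, in the 39 Hox regions and in all 34781 regions. In both panels plus-strand ends peak before the summit and minus-strand ends after it, an order largely built in by placing summits on shifted reads. The Hox curves are rougher because they rest on 714 reads within 300 bp.

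Reads that took no part in calling were also concentrated. When the calling saw only 50% of the ChIP reads, drawn at random, it gave 30 regions in the Hox windows, and 282 of the 1007 other ChIP reads there fell in them (28.0%, exact binomial interval 25.2 to 30.9). The same regions held 48 of 3038 extract reads (1.58%, 1.17 to 2.09). Over the genome, 22.3% of held-out ChIP reads and 0.772% of extract reads fell in regions. Both shares were thus higher in the Hox windows, and the higher ChIP share alone does not show stronger enrichment there. By window the held-out share was 30.6% in Hoxa (24.9 to 36.6), 31.9% in Hoxb (27.1 to 36.9), 15.8% in Hoxc (10.8 to 21.8) and 28.9% in Hoxd (22.8 to 35.7). The Hoxc interval does not reach those of the other 3 windows, but these intervals take each read as independent and are too narrow for clumped reads. With the other 50% used for calling, 31 regions were found and the share was 29.0%. In the first draw all 6 Hoxd regions were found again, and 8 of 10 in Hoxa, 12 of 16 in Hoxb and 4 of 7 in Hoxc.

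Whole windows were then compared with the extract and with each other. The Hoxa window held 520 ChIP and 751 extract reads, a ratio of 1.37 (interval 1.22 to 1.53). Hoxb held 734 and 920 reads (1.58, 1.43 to 1.74), Hoxc 385 and 700 (1.09, 0.958 to 1.23) and Hoxd 419 and 667 (1.24, 1.10 to 1.41). With library totals the whole genome, its enriched regions included, has a ratio of 1. The interval for Hoxc includes 1, and the intervals of the other windows lie above 1. So no excess of the Hoxc window over that genome average was detectable at this depth. Scaled by background bins, all 4 ratios were about 2 times as high, from 2.23 in Hoxc to 3.24 in Hoxb.

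Among the 6 pairs of windows, 3 differed in ratio after adjustment over the pairs. The test takes each read as independent. ChIP reads are clumped, with 40.7% of those in Hoxb and 20.3% of those in Hoxc in regions. Its intervals are therefore too narrow and its p-values too small. Outside regions the ratios of Hoxb and Hoxc were 0.888 and 0.846, with overlapping intervals. Hoxb exceeded Hoxc by 1.45 times (interval 1.24 to 1.70, Fisher's exact test, two-sided, adjusted p = 2.38e-05). Hoxb also exceeded Hoxd by 1.27 times (1.08 to 1.49, Fisher's exact test, adjusted p = 0.00797). With each window scaled by the totals of its own chromosome, that difference was 1.11 times with an adjusted p of 0.245 by the exact test. Chromosome 11 as a whole had a ratio of 1.21, against 1.0 on chromosome 6, 1.07 on chromosome 15 and 1.06 on chromosome 2. Hoxa exceeded Hoxc by 1.26 times (1.06 to 1.49, adjusted p = 0.0148, Fisher's exact test), and with extract lane 2 alone the adjusted p was 0.0939. For Hoxa against Hoxb (0.868 times, 0.746 to 1.01), Hoxa against Hoxd (1.10, 0.931 to 1.31) and Hoxc against Hoxd (0.876, 0.733 to 1.05) the intervals include 1.

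Regions per 100 kb were 4.0 in Hoxb (exact Poisson interval 2.29 to 6.50), 3.13 in Hoxa (1.5 to 5.75), 2.33 in Hoxc (0.938 to 4.81) and 1.71 in Hoxd (0.629 to 3.73). None of the 6 pairs passed the test, with the lowest adjusted p 0.52 (exact binomial test, two-sided) for Hoxb against Hoxd. That rate ratio was 2.33 with an interval of 0.867 to 7.28, so counts of this size leave several-fold differences undetected. Averages over the 4 chromosomes were 2.17 on chromosome 11, 1.30 on chromosome 6, 1.42 on chromosome 15 and 1.48 on chromosome 2.

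**Figure D4:**
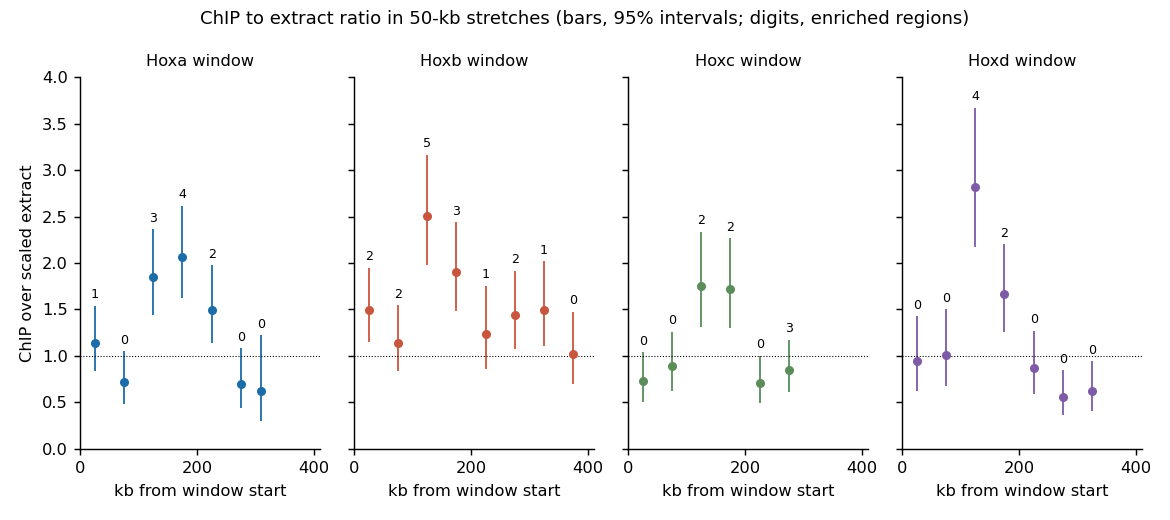
Ratio of ChIP to scaled extract reads in 50-kb stretches (the last of Hoxa is 20 kb) against the distance from the start of each window in kb, with exact 95% intervals and the number of enriched regions as digits. The stretches with the highest ratio reach 2.06 in Hoxa, 2.50 in Hoxb, 1.75 in Hoxc and 2.82 in Hoxd, and the ends of the Hoxa, Hoxc and Hoxd windows have lower ratios, near or below 1 with this scaling by library totals.

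ChIP reads over extract were highest in the inner stretches of each window. In Hoxd the stretch from 100 to 150 kb after the start held 144 ChIP and 101 extract reads (2.82, interval 2.17 to 3.67) and 4 regions. The last 2 stretches, from 250 to 350 kb, had ratios of 0.560 (0.360 to 0.846) and 0.625 (0.404 to 0.945). With background bins these were 1.15 (0.740 to 1.74) and 1.29 (0.829 to 1.94), so their side of 1 depends on the scaling. That scaling changes every stretch by the same factor and so cannot alter their order. In Hoxa the stretches from 100 to 200 kb had ratios of 1.85 (1.44 to 2.37) and 2.06 (1.63 to 2.62) with 7 regions, while the stretch just before them had 0.721 (0.486 to 1.05) and none. Hoxc had ratios of 1.75 (1.31 to 2.34) and 1.72 (1.31 to 2.27) from 100 to 200 kb. Its last stretch held 3 regions and a ratio of 0.850 (0.608 to 1.17). Hoxb peaked from 100 to 150 kb at 2.50 (1.98 to 3.17) with 5 regions, and had ratios from 1.02 to 1.90 elsewhere.

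Reads outside the regions and 1 kb around them were also compared with the extract. With library totals, which count the reads in regions too, the ratio was 0.800 in Hoxa (0.693 to 0.923), 0.888 in Hoxb (0.781 to 1.01), 0.846 in Hoxc (0.734 to 0.973) and 0.824 in Hoxd (0.711 to 0.952). The same measure over each whole chromosome was 0.722, 0.774, 0.735 and 0.730, each below the value of its Hox window. It fell within the interval of Hoxa, Hoxc and Hoxd and below that of Hoxb. Scaled by background bins, the ratios outside regions were 1.64 in Hoxa, 1.82 in Hoxb, 1.74 in Hoxc and 1.69 in Hoxd, so whether they lie below or above 1 is set by the scaling. Extract reads there were also denser than on the chromosome in Hoxa (2.28 against 1.71 per kb) and Hoxc (2.35 against 1.76), and close to it in Hoxb (2.20 against 2.09) and Hoxd (1.90 against 1.83). The part of mappability or base composition in this was not tested.

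Set among all windows of the same length on the same chromosome, the Hox windows were above the middle but not at the top. The 10 regions of Hoxa were matched or exceeded by 52 of 448 windows (median 3 regions, highest 21). The 16 of Hoxb were matched or exceeded by 50 of 295 (median 8, highest 29), the 7 of Hoxc by 83 of 332 (median 2.5, highest 23) and the 6 of Hoxd by 198 of 499 (median 4, highest 32). By ratio of ChIP to extract, 90.8% of windows lay below Hoxa, 84.1% below Hoxb, 71.1% below Hoxc and 78.8% below Hoxd. Mean ChIP reads per region exceeded those of 83.5% of windows with a region in Hoxa (20.8 reads) and 76.8% in Hoxd (21.5). Hoxb stood at 54.1% (18.7 reads) and Hoxc at 19.6% (11.1 reads). These are places in a list, with no test.

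**Figure D5:**
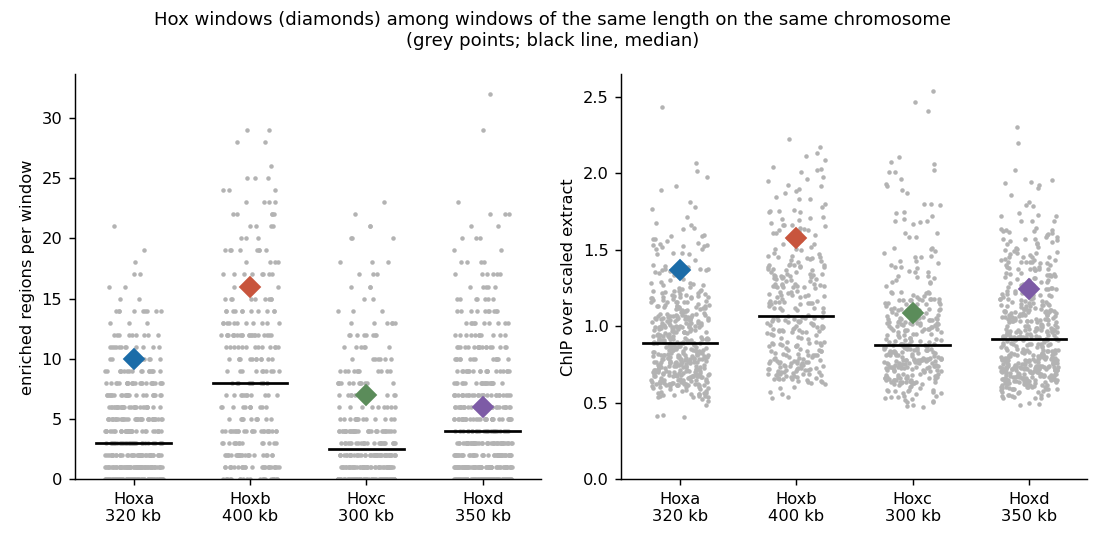
Enriched regions per window (left) and ratio of ChIP to scaled extract reads (right) for each Hox window (diamond) and for the windows of the same length on its chromosome (grey points, median as a black line). Each diamond lies above its median, and on both scales other windows of the chromosome lie higher.

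Between neighbouring summits inside the windows there were 35 steps, of which 11 were under 10 kb and 22 under 20 kb, with a median of 14.9 kb. Stretches from the outermost summits to the window ends are not among them. The densest 100 kb held 9 summits in Hoxb, 8 in Hoxa, 6 in Hoxd and 4 in Hoxc. Over the genome 28.7% of 34760 steps were under 10 kb and 44.7% under 20 kb, with a median of 24.55 kb. Steps inside a Hox window cannot exceed its length. Of all 34781 summits, 4.93% opened a 100-kb stretch with at least as many summits as the densest of Hoxb. The share was 8.55% for Hoxa, 22.0% for Hoxd and 47.9% for Hoxc. The median such stretch held 3 summits. This sets the densest stretch of a window against all stretches, with no test.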

How the data were processed

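The authors deposited 1 line per aligned read of 36 bases, with chromosome, start, end, strand and read name, for 1 ChIP and 1 extract library; the build is mm8 per the submitters' processing notes. The deposited values are positions, so reads were counted here. Which aligner and read filters were used is not stated in the labels. Starts were taken as 0-based and are printed 1-based, and may be off by 1 bp.

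Bins and regions were tested genome-wide over 21 chromosomes with exact one-sided Poisson tests and Benjamini-Hochberg adjustment, with the limits stated beside the results (Python 3.11.15, numpy 2.4.6, scipy 1.17.1). A region belongs to a window by its summit, the middle of its fullest 200-bp window. Ratios have exact conditional binomial intervals. Windows of the same length were laid end to end from the chromosome start, without those overlapping the Hox window or holding under 25% of the median extract reads. At this depth the Hox regions held 5 to 40 reads each.

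The members and lists were chosen with earlier results of these data known. Named regions are, in each window, the 5 with the most ChIP reads, the one with the fewest, the closest and the farthest neighbours, and the bins with the most reads. Alternatives covered scaling, shift, thresholds, widths, lanes, subsets of reads and window bounds. Sequences come from RefSeq (GRCm38.p6).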

Additional observations from a re-analysis of the deposited data

How the results depend on the processing

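Of the 39 Hox regions, 24 were found in all 14 other settings of the calling. Several settings only loosen the calling: a higher limit on the adjusted p, a lower fold, wider joining, background bins, or the genome average alone. These could hardly lose a region, and none was missed under them. The 24 regions found in all settings had a median of 23 ChIP reads, and the regions missed at least once a median of 9. Region counts stayed within 1.5 times in Hoxa and Hoxb. In Hoxc 4 regions instead of 7 were called at an adjusted p under 1e-06, with no shift, and with either random 50% of the reads, and in Hoxd 10 instead of 6 at an adjusted p under 0.05. Called bins numbered 5 in Hoxa, 6 in Hoxb and 2 in Hoxc at 10 times the expected count, and 9 in Hoxb at an adjusted p under 1e-06, against 8, 16 and 4. Scaled by background bins, which were chosen for low ChIP counts, the window ratios were 2.81 in Hoxa, 3.24 in Hoxb, 2.23 in Hoxc and 2.55 in Hoxd. The Hoxb ratio was 1.30 with chromosome 11's own totals. With such totals Hoxa over Hoxb turned from 0.868 to 1.05 (adjusted p = 0.545) and Hoxb over Hoxd fell to 1.11 (adjusted p = 0.245), both by exact tests. Hoxa over Hoxb was 0.829 with extract lane 1 alone (adjusted p = 0.048, Fisher's exact test), and Hoxa over Hoxc was 1.24 with lane 2 alone (adjusted p = 0.0939, Fisher's exact test). Regions per 100 kb in Hoxc over Hoxd went from 1.36 to 0.778 under the limit of 1e-06, and to 0.778 and 0.933 with either 50% of the reads, with adjusted p from 0.761 to 1.0 (exact tests). Hoxb over Hoxc in ratio passed in each setting tried (1.28 to 1.54 times), by tests that all take clumped reads as independent. With background bins, a scaling added for these values after seeing the data, ratios outside regions went above 1. They were 1.64 in Hoxa, 1.82 in Hoxb, 1.74 in Hoxc and 1.69 in Hoxd. All stretches of 50 kb with a ratio below 1 also went above it. In 3 of these the interval with library totals lay below 1. Those 3 went to 1.45 in Hoxc (200 to 250 kb) and to 1.15 and 1.29 in Hoxd (250 to 350 kb). The cause of these changes was not tested. By regions, the place among windows of the same length was 86.1 to 88.6% in Hoxa, 81.6 to 83.1% in Hoxb, at most 75.6% in Hoxc and 60.1 to 60.7% in Hoxd. No paired analysis was possible because only a single library stands for ChIP and a single one for extract, so no replicate could be left out either.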
